A study of Homo sapiens with 4 samples.

Results

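The 9 loci described here were rows of very highest abundance in a table of long noncoding RNAs (lncRNAs), chosen by name because their FPKM was extreme: lnc-ARHGEF39-1, lnc-EPN2-3, SNHG3, lnc-TAF15-5, lnc-LRRTM4-6, TCONS_00021150, lnc-PHACTR4-3, TCONS_00001933 and SNHG10. They were 9 of 46902 loci and 27 of 104786 isoform rows, and 18 of the 27 rows had a mean FPKM of at least 0.5. FPKM scales the fragments of a transcript by its length and by the mapped fragments in that library, and read depth is unknown. The levels served for the choice, so levels and shares below are a description, and the tests concern the difference between the cell lines.

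MDA-MB-231, an established human breast cancer line of the triple-negative kind, was compared with MDA-MB-231-P3, a subline of it that the labels call highly metastatic. Per the labels' protocols, the subline came from 3 rounds of tail vein injection into mice, recovery of cells from lung tumours and expansion in culture, so it is a single selected population. Each line had 2 strand-specific libraries made from the mRNA fraction, 4 in all, and neither group carried a further genotype or treatment. Nothing in the labels says that the 2 libraries per line came from separate cultures, so p-values cover library-to-library spread alone, and this may be technical. Cell identity was not checked, since 0 of 11 marker genes sought (VIM, EPCAM, ESR1 and PTPRC among them) had a row in the table.

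Small structured RNAs are short noncoding RNAs that work inside ribonucleoprotein particles. RMRP is the RNA of the ribonuclease MRP, which cleaves ribosomal RNA precursors. U3, encoded by the SNORD3 genes, is a box C/D small nucleolar RNA (snoRNA) needed for early cleavage of the same precursors. The SNORA73 RNAs are H/ACA snoRNAs linked to maturation of the small ribosomal subunit, and SCARNA13 belongs to the small Cajal body RNAs, a class that guides modification of spliceosomal RNAs. Many snoRNAs are cut from the introns of host transcripts such as the SNHG genes. The mature forms of these small RNAs have no poly(A) tail.

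Known small RNA genes were sought in the GRCh37 lift of GENCODE release 44 (GRCh37 has the hg19 sequence). Names such as lnc-EPN2-3 only point to a neighbouring gene, and no coordinates of these rows were used here, so whether a row overlaps a small RNA gene was not tested. The window was therefore 100 kb on either side of the gene in the name, and 10 kb around SNHG3 and SNHG10, which have their own symbols. An RMRP, U3, SNORA73 or SCARNA13 gene lay in the window for 5 of the 9 loci, and was not found for lnc-TAF15-5 and lnc-LRRTM4-6. The other 2, TCONS_00021150 and TCONS_00001933, had no position to search around. SNHG3 and lnc-PHACTR4-3 count the same SNORA73B gene. How many loci outside the 9 have such a gene in their windows was not counted, so the 5 of 9 is a description only.

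RMRP lay 858 bases from ARHGEF39, on the minus strand, beside the pseudogene RN7SL22P and MIR4667 in the same window. Of the U3 genes, SNORD3A and SNORD3C lay 26901 and 25370 bases from EPN2. Nearer to EPN2, at 7791 bases, was MIR1180, and snoMe28S-Am2634 lay 83564 bases away. SNORA73B lay inside SNHG3 and 8195 bases from PHACTR4. A Y_RNA gene and RNU6ATAC27P lay inside PHACTR4, and snoU13 and SNORD99 lay 17112 and 78385 bases from it. The snoU13 gene was also 6584 bases from SNHG3, so the windows of SNHG3 and lnc-PHACTR4-3 share SNORA73B and snoU13. RefSeq also places SNORA73A and the snoRNA gene LOC124904836 in both windows. In the lnc-PHACTR4-3 window it further lists the snoRNA genes SNORA61, SNORA44 and SNORA16A. In the lnc-ARHGEF39-1 window it adds MIR6852 and MIR6853. SCARNA13 lay inside SNHG10, intronic in 9 and exonic in 2 of the 11 annotated transcripts that span it. Near TAF15 the only entry was RN7SKP274, a pseudogene of the 7SK RNA 24943 bases away, and RefSeq lists 0 small RNA genes in that window. Inside LRRTM4 were 2 predicted microRNA genes, AC079117.2 and AC079117.3, and RefSeq lists 0. The identifiers TCONS_00021150 and TCONS_00001933 name no gene, so no position was assigned to them.

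The sequences of these candidate small RNAs are shown so that the RNAs and their near-identical copies can be compared. They do not tie a row of the table to an RNA family. All are read from GRCh37, 5′ to 3′, in DNA letters. In SNORD3A the capitals mark TGATGA, the box C motif, and in the H/ACA RNAs they mark an ACA placed exactly 3 bases before the 3′ end. For the best match to SNORA73B in SNHG3, both ends come from extending its alignment to the full SNORA73B. The place of its ACA was therefore taken over from SNORA73B. RMRP has no part in capitals because no motif was sought in it. The SNORD3A stretch is the start of the annotated gene, cut to the 217 bases that RefSeq gives for this RNA.
RMRP (chr9:35657751-35658014, minus strand, 264 bases): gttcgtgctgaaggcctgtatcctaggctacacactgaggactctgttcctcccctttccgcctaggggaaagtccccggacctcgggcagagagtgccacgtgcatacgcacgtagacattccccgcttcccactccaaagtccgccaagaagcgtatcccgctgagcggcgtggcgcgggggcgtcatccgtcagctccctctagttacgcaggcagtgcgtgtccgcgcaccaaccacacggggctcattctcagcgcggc
SNORD3A (chr17:19091329-19091545, plus strand, 217 bases): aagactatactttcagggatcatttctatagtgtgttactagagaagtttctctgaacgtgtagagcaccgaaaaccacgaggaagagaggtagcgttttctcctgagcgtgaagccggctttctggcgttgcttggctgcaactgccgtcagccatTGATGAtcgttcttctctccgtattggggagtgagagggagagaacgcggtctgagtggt
SNORA73B (chr1:28835071-28835274, plus strand, 204 bases): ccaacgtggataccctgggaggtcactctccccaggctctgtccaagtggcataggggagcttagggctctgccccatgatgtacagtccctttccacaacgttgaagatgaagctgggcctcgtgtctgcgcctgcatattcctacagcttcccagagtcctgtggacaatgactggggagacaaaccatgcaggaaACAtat
Best match to SNORA73B upstream of it in SNHG3 (chr1:28833878-28834083, plus strand, 206 bases): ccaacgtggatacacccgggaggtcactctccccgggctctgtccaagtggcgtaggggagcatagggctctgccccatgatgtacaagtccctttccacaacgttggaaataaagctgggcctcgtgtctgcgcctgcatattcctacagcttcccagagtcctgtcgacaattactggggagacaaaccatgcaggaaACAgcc
SCARNA13 (chr14:95999692-95999966, minus strand, 275 bases): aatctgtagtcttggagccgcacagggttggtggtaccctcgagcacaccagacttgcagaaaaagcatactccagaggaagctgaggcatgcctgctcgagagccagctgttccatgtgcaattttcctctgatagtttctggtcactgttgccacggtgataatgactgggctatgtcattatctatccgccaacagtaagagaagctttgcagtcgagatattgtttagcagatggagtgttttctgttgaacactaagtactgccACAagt

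The U3 genes were near-identical copies. SNORD3C, SNORD3B-1 and SNORD3B-2 each matched SNORD3A at 216 of 217 bases (99.5%). Within SNHG3 the 2 SNORA73 stretches matched at 192 of 201 aligned bases (95.5%). How the authors' counting divided reads among such copies is not given in the sources used here, so levels assigned to a U3 or SNORA73 locus are uncertain. On the sense strand, which alone was searched, TGATGA occurs in 39.9% of the 1458 annotated snoRNA genes and in 47.0% of the 66 of 200 to 300 bases. The ACA at that place occurs in 19.6% and 6.1%. The 66 genes leave out SNORD3A, SNORD3C, SNORD3B-1 and SNORD3B-2, which GENCODE annotates at 699, 581, 758 and 791 bases. SNORA73B was intronic in both SNHG3 transcripts that span it, while its upstream match was intronic in 2 SNHG3 transcripts and exonic in SNHG3-202.

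Together the 9 loci, 0.0192% of the loci listed, held 72.9% and 68.4% of all listed FPKM in MDA-MB-231 and 67.6% and 66.8% in MDA-MB-231-P3. The combined share differed by -3.46 percentage points in the subline (exact permutation test, two-sided, p = 0.33, the smallest that 2 libraries against 2 allow). All listed FPKM summed to between 351135 and 500086 per library, and the FPKM outside the 9 loci to between 113891 and 158054. Single loci varied relatively more than the combined share: lnc-ARHGEF39-1 held 14.3% to 28.5% of a library, lnc-EPN2-3 3.17% to 26.0%, lnc-LRRTM4-6 0.987% to 15.4% and TCONS_00021150 1.04% to 12.6%. The other 5 loci held 5.35% to 11.5% (SNHG3), 6.12% to 9.32% (lnc-TAF15-5), 2.48% to 6.17% (lnc-PHACTR4-3), 1.47% to 2.95% (TCONS_00001933) and 0.364% to 0.724% (SNHG10).

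**Figure D1:**
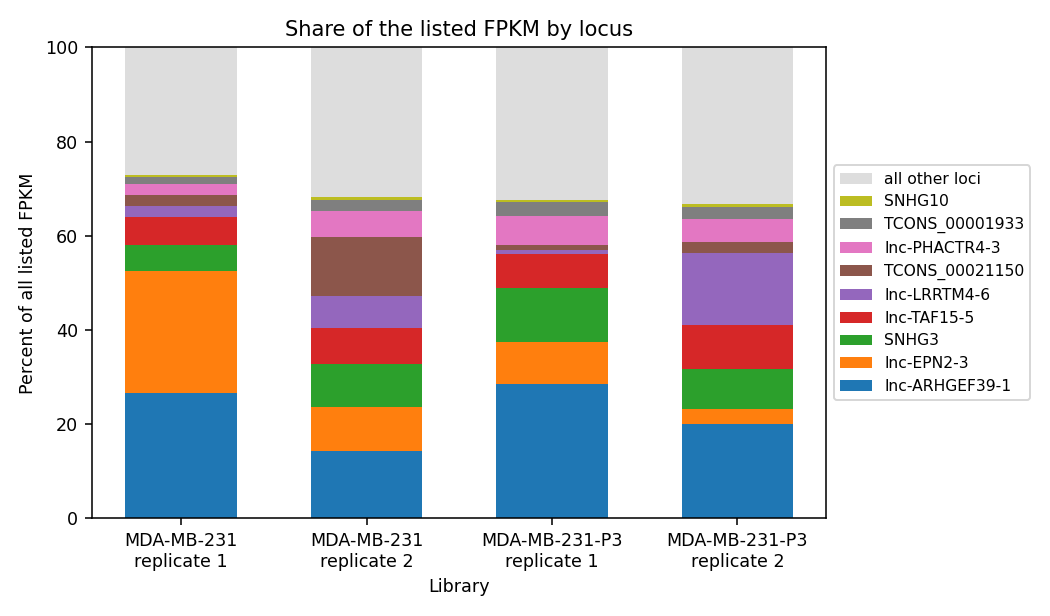
Percent of all listed FPKM (vertical axis) held by each of the 9 loci and by all other loci in each of the 4 libraries (horizontal axis, 1 bar per library). The 9 loci fill 66.8% to 72.9% of every bar, while the lnc-EPN2-3 segment runs from 3.17% to 26.0%.

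Of the 9 loci, 8 were the 8 loci of highest mean FPKM, and SNHG10 ranked 24, with 15 loci that are not members above it. The lowest of the 8 was TCONS_00001933 at a mean of 9708 FPKM. Just outside were MIR663AHG (8915 FPKM), lnc-GAPDH-2 (7063), lnc-TTI1-1 (5526), lnc-TRAFD1-4 (4864) and TCONS_00021140 (4772), so the boundary does not fall in a gap. SNHG10 had a mean of 2309 FPKM.

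**Figure D2:**
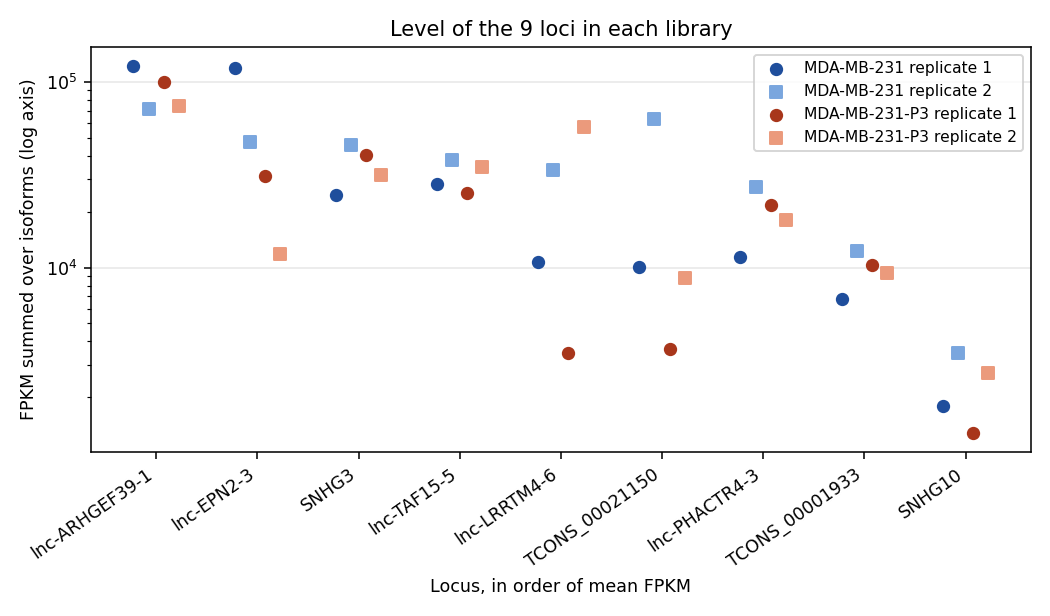
FPKM summed over the isoforms of each locus (vertical log axis), 1 point per library, with the 9 loci in order of mean FPKM on the horizontal axis. The 4 points of lnc-TAF15-5 lie between 25151 and 37987, whereas those of lnc-LRRTM4-6 run from 3464 to 57423.

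Between the lines, 0 of the 9 loci passed the test on FPKM summed over isoforms (limma on log2(FPKM + 0.5), Benjamini-Hochberg adjusted p under 0.05), where 4 of all 6444 genes tested did (0.0621%, with 0.031% higher and 0.031% lower). At an unadjusted p under 0.05 stood 1 of the 9 loci, against 15.2% of all genes. On single isoform rows 0 of 18 were called, as were 0 of all 8432 rows (0%), and 3 of the 18 had an unadjusted p under 0.05, against 13.3% of all rows. Without overlap between the lines, 2 of the 9 loci were lower in the subline, against 21.4% of all genes, and 0 were higher, against 28.9%. Of the 18 rows, 4 were lower without overlap, against 20.7% of all rows, and 1 higher, against 27.3%. These counts were near or below the background. The median log2 difference of the 9 loci was -0.15, beside 0.09 over all genes, and its sign depended on the setting. It was 0.20 with quantile normalization (all genes -0.03), 0.26 rescaled to the listed total (all genes 0.46) and 0.10 rescaled to the FPKM outside the 9 loci (all genes 0.35). It was -0.46 without parental replicate 1, 0.07 without parental replicate 2, 0.03 without subline replicate 1 and -0.38 without subline replicate 2.

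**Figure D3:**
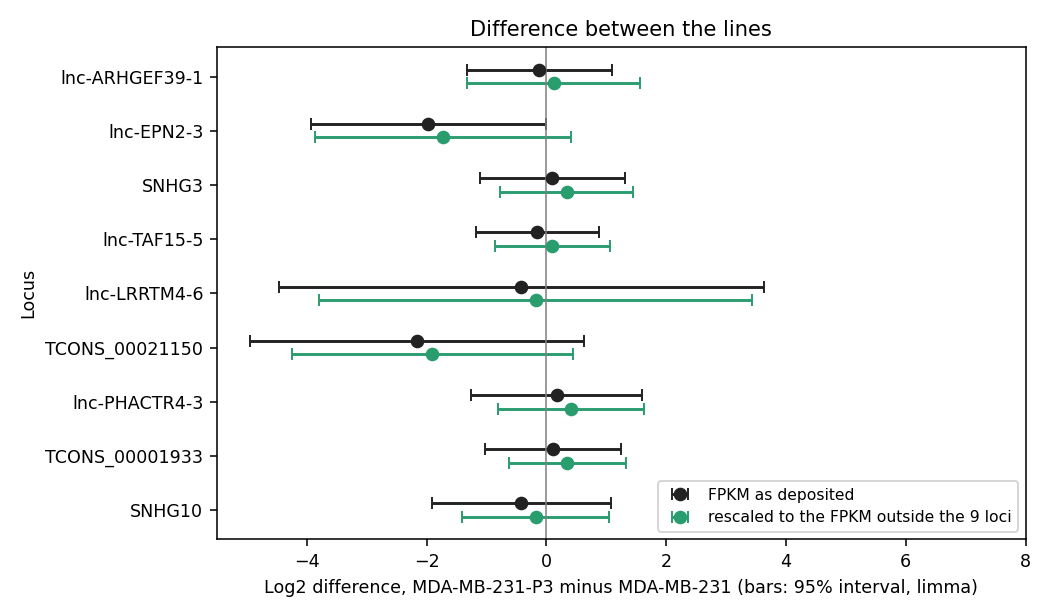
Log2 difference of each locus, MDA-MB-231-P3 minus MDA-MB-231 (horizontal axis), with 95% limma intervals, for FPKM as deposited and for FPKM rescaled to the total outside the 9 loci. Only the interval of lnc-EPN2-3 as deposited, -3.93 to -0.02, leaves out 0, and that of lnc-LRRTM4-6 spans -4.47 to 3.62.

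The locus lnc-ARHGEF39-1, named for a gene near RMRP, ranked at the top of all 4 libraries. It was listed at 122307 and 71695 FPKM in MDA-MB-231 and at 100032 and 74398 FPKM in MDA-MB-231-P3. Replicate 1 was the higher library in both lines and the lines overlapped. Means were 97001 ± 35789 FPKM for MDA-MB-231 and 87215 ± 18126 FPKM for MDA-MB-231-P3 (SD, n = 2 each), and the log2 difference was -0.12 (95% interval -1.33 to 1.09, SE 0.45, limma adjusted p = 0.908), and 0.12 after rescaling to the FPKM outside the 9 loci. The interval leaves room for a change of more than 1 on the log2 scale either way.

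Its FPKM was divided between 2 isoform rows. The row lnc-ARHGEF39-1:4 was listed at 87497 and 53421 FPKM (parent) and 66167 and 48343 FPKM (subline), and lnc-ARHGEF39-1:3 at 34810 and 18274 FPKM and at 33865 and 26055 FPKM. The ratio of the 2 rows was 2.51 and 2.92 in MDA-MB-231 and 1.95 and 1.86 in MDA-MB-231-P3. Isoform 4 therefore held 71.5% and 74.5% of the locus in the parent and 66.1% and 65.0% in the subline. The lines did not overlap in this split, which was noticed after the values were seen and not tested.

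By the smallest distance of centred log2 profiles among the 162 non-member loci with a mean of at least 50 FPKM, the locus most like lnc-ARHGEF39-1 over the 4 libraries was TCONS_00001030 (distance 0.0914). It was listed at 262 and 154 FPKM (parent) and 213 and 171 FPKM (subline). The ratio of lnc-ARHGEF39-1 to it was 467, 465, 470 and 435 in these libraries, a spread of 1.08-fold. The next were lnc-RPS6KA3-3 (distance 0.38) and lnc-BICRAL-3 (0.41). With 4 libraries such likeness is a description only.

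The locus lnc-EPN2-3, named for a gene near the U3 genes SNORD3A and SNORD3C, had the lowest p of the 9 on summed values. It was listed at 119616 and 47228 FPKM in MDA-MB-231 and at 31103 and 11798 FPKM in MDA-MB-231-P3. Every subline library lay below every parental one, but the 2 libraries of a line differed 2.53-fold in the parent and 2.64-fold in the subline. The parental mean was 3.89-fold the subline mean (83422 ± 51186 against 21450 ± 13651 FPKM, SD, n = 2 each). On the log2 scale the difference was -1.97 (95% interval -3.93 to -0.02, SE 0.729, unadjusted p = 0.0488), and it did not pass the test over all genes (limma adjusted p = 0.328).

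Its 2 rows changed their ratio between libraries. Isoform lnc-EPN2-3:3, listed at 108784 and 34625 FPKM (parent) and 25382 and 10174 FPKM (subline), held 90.9% and 73.3% of the locus in MDA-MB-231 and 81.6% and 86.2% in MDA-MB-231-P3. The other row, lnc-EPN2-3:2, was listed at 10833 and 12603 FPKM (parent) and 5721 and 1624 FPKM (subline). The parental libraries differed 3.14-fold in isoform 3 and 1.16-fold in isoform 2, and the subline libraries 2.49-fold and 3.52-fold. How reads were divided between the 2 rows is unknown, and the source of the 2.53-fold gap between the parental libraries was not tested. The log2 differences were -1.93 for isoform 3 (limma adjusted p = 0.409) and -1.94 for isoform 2 (limma adjusted p = 0.371).

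Another locus, lnc-SLC5A10-3, is also named for a gene near U3 genes. SNORD3B-1 and SNORD3B-2 lie 39317 and 40751 bases from SLC5A10, and RefSeq also lists SNORD3D in the window of SLC5A10. The levels of lnc-SLC5A10-3 were 2030 and 417 FPKM (parent) and 117 and 38.9 FPKM (subline). From the highest library to the lowest, both loci had the order parental replicate 1, parental replicate 2, subline replicate 1, subline replicate 2. The log2 difference of lnc-SLC5A10-3 was -3.76 (SE 0.971), again short of the threshold (limma adjusted p = 0.268). The ratio of lnc-EPN2-3 to it was not constant, at 58.9 and 113 in the parent and 265 and 303 in the subline. Whether the same reads were assigned to both loci was not tested.

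SNHG3, host of SNORA73B, was listed at 24621 and 45509 FPKM in MDA-MB-231 and at 40522 and 31704 FPKM in MDA-MB-231-P3. Both subline libraries lay between the parental ones. The log2 difference was 0.10 (95% interval -1.12 to 1.32, SE 0.453, limma adjusted p = 0.926). Nearly all of it was 1 isoform: SNHG3:6 held 99.9% or more of the locus in every library, at 24608 to 45497 FPKM. The other row, SNHG3:7, stood at 12.5 and 12.2 FPKM (parent) and 11.9 and 13.7 FPKM (subline), a far narrower range than that of SNHG3:6. The ratio of the 2 rows ran from 1970 to 3730.

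The neighbouring name lnc-PHACTR4-3, a single row, was listed at 11393 and 27211 FPKM (parent) and 21682 and 17976 FPKM (subline). Its log2 difference was 0.17 (95% interval -1.26 to 1.59, limma adjusted p = 0.893). TCONS_00001933, also a single row, was listed at 6745 and 12345 FPKM (parent) and 10373 and 9367 FPKM (subline), a log2 difference of 0.11 (95% interval -1.02 to 1.24, limma adjusted p = 0.908). In both loci, as in SNHG3, parental replicate 1 was the lowest library and parental replicate 2 the highest.

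These 3 loci kept close to fixed ratios. SNHG3 was 3.65, 3.69, 3.91 and 3.38 times TCONS_00001933 in parental replicates 1 and 2 and subline replicates 1 and 2. SNHG3 was likewise 2.16, 1.67, 1.87 and 1.76 times lnc-PHACTR4-3. Over the 36 pairs of the 9 loci, the ratio within a pair differed between its highest and lowest library by a median of 9.68-fold and by up to 54.4-fold, for lnc-EPN2-3 and lnc-LRRTM4-6. The 3 pairs among SNHG3, lnc-PHACTR4-3 and TCONS_00001933 were the only pairs under 1.5-fold, at 1.15, 1.29 and 1.31. This cut was not planned, and how many pairs of other loci stay under it was not counted, so the likeness is a description only. TCONS_00001933 has no position here, so its relation to the SNHG3 region was not tested.

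**Figure D4:**
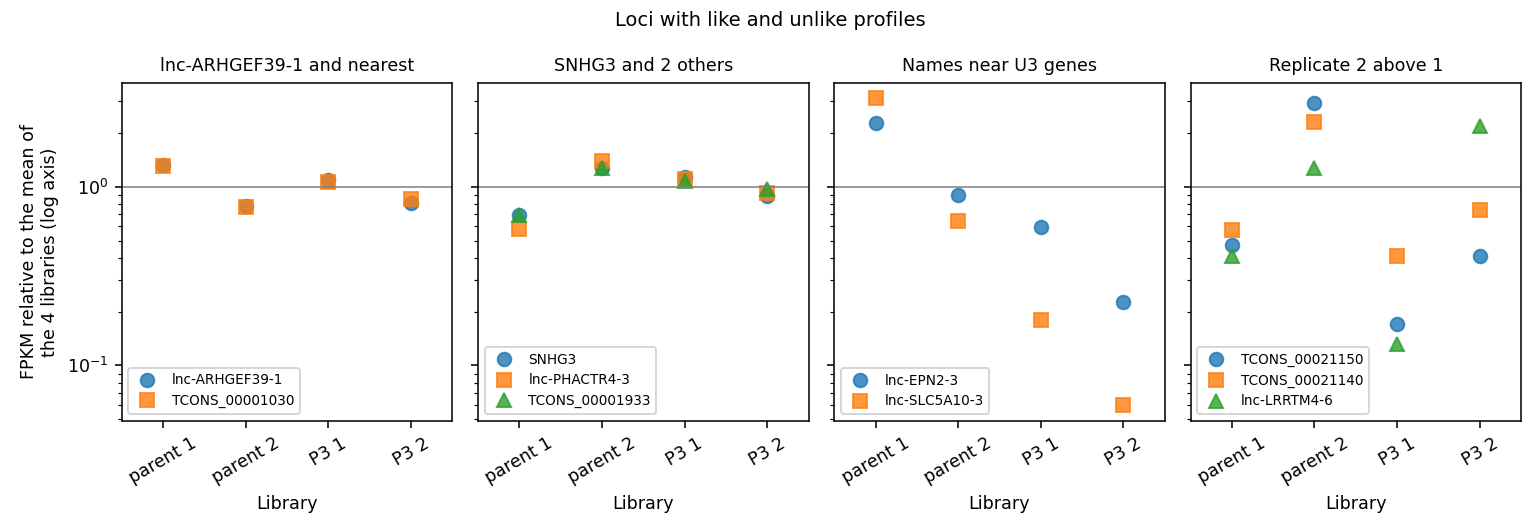
FPKM of a locus relative to its own mean over the 4 libraries (vertical log axis) in each library (horizontal axis, parent 1 and 2 and P3 1 and 2 being the replicates of each line), for 4 sets of loci. The points of SNHG3, lnc-PHACTR4-3 and TCONS_00001933 lie close together in every library, as do those of lnc-ARHGEF39-1 and TCONS_00001030, while lnc-EPN2-3 and lnc-SLC5A10-3 share the same order of libraries.

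SNHG10, host of SCARNA13, was far lower than the other loci. It was listed at 1790 and 3466 FPKM in MDA-MB-231 and at 1279 and 2699 FPKM in MDA-MB-231-P3. Replicate 2 was higher in both lines and the lines overlapped. The log2 difference was -0.42 (95% interval -1.92 to 1.07, SE 0.558, limma adjusted p = 0.719).

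Of its 16 isoform rows, SNHG10:11 held 99.1% to 99.7% of the locus. Of the other 15 rows, 6 reached a mean of 0.5 FPKM and 9 did not, with no value above 0.157 FPKM. The low row SNHG10:5 was listed at 5.99 and 3.97 FPKM (parent, 1.51-fold apart) and 5.35 and 4.96 FPKM (subline, 1.08-fold apart). SNHG10:1 and SNHG10:14 had unadjusted p under 0.05 in opposite directions. SNHG10:1 was listed at 0.476 and 0.0813 FPKM (parent) and 1.65 and 1.17 FPKM (subline) (limma adjusted p = 0.354). SNHG10:14 was listed at 0.942 and 1.22 FPKM (parent) and 0.262 and 0.000249 FPKM (subline) (limma adjusted p = 0.365). Neither passed over all rows, and values this low can be failed estimates of an isoform's share.

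The remaining 3 loci were lnc-TAF15-5 and lnc-LRRTM4-6, with no gene of these small RNA families in their windows, and TCONS_00021150, for which no window was searched. The steadiest of them, lnc-TAF15-5, was listed at 28162 and 37987 FPKM in MDA-MB-231 and at 25151 and 34734 FPKM in MDA-MB-231-P3. Its replicates differed by 1.35-fold and 1.38-fold, replicate 2 being higher in both lines, and its log2 difference was -0.15 (95% interval -1.17 to 0.88, limma adjusted p = 0.864), or 0.10 after the same rescaling. The interval was the narrowest of the 9 loci.

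The least reproducible was lnc-LRRTM4-6, listed at 10708 and 33477 FPKM (parent) and 3464 and 57423 FPKM (subline). Both extremes were subline libraries, 16.6-fold apart, and both parental values lay between them. It ranked 14 in subline replicate 1 and 2 in subline replicate 2. The log2 difference was -0.42 with a 95% interval of -4.47 to 3.62 (SE 1.51, limma adjusted p = 0.901) and 0.20 with quantile normalization, although the subline mean was the higher of the 2 (30444 ± 38155 against 22092 ± 16100 FPKM, SD, n = 2 each), so mean and log difference had opposite signs.

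TCONS_00021150 was listed at 10086 and 63116 FPKM (parent) and 3638 and 8810 FPKM (subline). The lines did not overlap, yet the parental libraries were 6.26-fold apart and the lower of them lay close to the higher subline library. Its log2 difference was the largest in size, -2.16 (95% interval -4.94 to 0.63, SE 1.04, limma adjusted p = 0.406). Without parental replicate 2 it was -0.83, and without parental replicate 1 it was -3.48. TCONS_00021140, just outside the 9 loci, had its highest value in the same library, at 2716 and 10912 FPKM (parent) and 1944 and 3517 FPKM (subline), and the ratio of TCONS_00021150 to it was 1.87 to 5.78.

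The spread between the libraries of a line differed widely among the 9 loci. In MDA-MB-231 the higher library was 1.35 to 6.26 times the lower, with a median of 1.94 over the 9 loci, beside a median of 1.37 over all 6444 genes and of 1.38 over the 27 other genes with a mean of at least 1000 FPKM. In MDA-MB-231-P3 the range was 1.11 to 16.6 and the median 1.38, beside 1.30 and 1.23. Of the 9 loci, 6 had the same replicate order in both lines: replicate 1 was higher for lnc-ARHGEF39-1 and lnc-EPN2-3, and replicate 2 for lnc-TAF15-5, lnc-LRRTM4-6, TCONS_00021150 and SNHG10. Over all genes 50.7% had the same order in both lines. SNHG3, lnc-PHACTR4-3 and TCONS_00001933 had opposite orders.

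**Figure D5:**
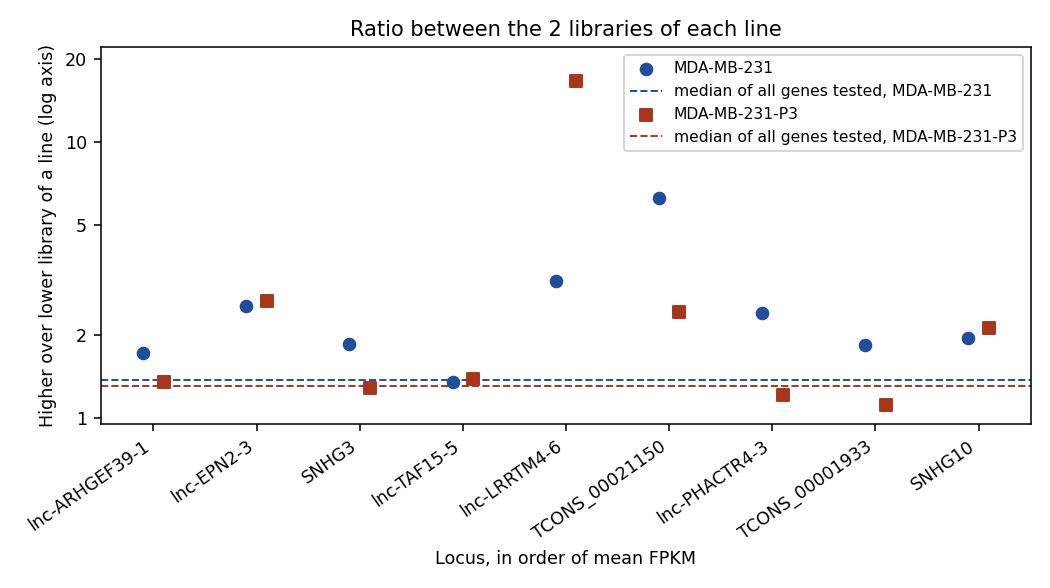
Ratio of the higher to the lower library of each line (vertical log axis) for the 9 loci (horizontal axis), with dashed lines at the medians over all genes tested, 1.37 for MDA-MB-231 and 1.30 for MDA-MB-231-P3. The ratio reaches 16.6 for lnc-LRRTM4-6 in MDA-MB-231-P3 and 6.26 for TCONS_00021150 in MDA-MB-231, and stays at 1.35 and 1.38 for lnc-TAF15-5.

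Other small RNA loci give context. None of the 22 small RNA names sought, RMRP, TERC, RN7SK and SNORD3A among them, had a row of its own. Of the loci named for neighbours of such genes, 11 beyond the 9 loci were tested and 0 passed limma in either direction (3 at an unadjusted p under 0.05, against 15.2% of all genes). They had 4 negative and 7 positive differences with a median of 0.25, beside 0.09 over all genes. Without overlap 3 were lower and 5 higher, against 21.4% and 28.9% of all genes. The most abundant was lnc-CCNB1IP1-1, named for a gene near RPPH1 (the RNA of ribonuclease P) in RefSeq. It was listed at 2629 and 146 FPKM (parent) and 9857 and 441 FPKM (subline). Replicate 1 was 18.1 and 22.4 times replicate 2 in the 2 lines, with replicate 1 the higher as for lnc-ARHGEF39-1 and lnc-EPN2-3. TERC, the telomerase RNA, lies 1861 bases from ACTRT3. The locus lnc-ACTRT3-2 was listed at 2298 and 2511 FPKM (parent) and 1823 and 1901 FPKM (subline) (limma adjusted p = 0.547). Unlike lnc-CCNB1IP1-1, it had replicate 2 as the higher library in both lines.

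Of 17 other snoRNA hosts, 0 passed limma (6 at an unadjusted p under 0.05, against 15.2% of all genes), 15 had negative differences with a median of -0.54, beside 0.09 over all genes, and 14 lay below without overlap and 1 above, against 21.4% and 28.9% of all genes. GAS5 was listed at 1073 and 932 FPKM (parent) and 1132 and 1207 FPKM (subline), SNHG5 at 1294 and 1010 against 934 and 945 FPKM, and SNHG8 at 1487 and 1088 against 629 and 648 FPKM. Of the 2 hosts among the 9 loci, SNHG3 was many times more abundant than these and overlapped between the lines, with a log2 difference of 0.10. SNHG10 overlapped as well, but its log2 difference of -0.42 had the same sign as the median of the 17 hosts.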

How the data were processed

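RNA of each line, in 2 libraries per line, was sequenced as 150-base read pairs, strand-specific by the dUTP method, per the labels' protocols. The authors aligned reads to hg19 with HISAT2 and deposited FPKM per lncRNA isoform, per the labels' protocols, and the submitters' processing notes also name StringTie. Not given in the sources used here are versions, the lncRNA annotation and how reads were divided among isoforms. Values of the per-library files equalled the series table at all 104786 rows, and read depth is unknown.

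Isoforms were summed per name. Features with a mean of at least 0.5 FPKM entered limma 3.58.1 (R 4.3.3) as log2(FPKM + 0.5) (intensity trend, two-sided, no block), with Benjamini-Hochberg adjustment over every tested feature and a call at 0.05. Shares were compared with an exact permutation test (scipy 1.17.1). Each member's leading isoform, isoforms with at least 10% of a locus, the next 5 loci, the 3 loci most alike and up to 3 loci of each comparison list are named, and further rows were named after their values were seen. The tests were tested on simulated data. Alternatives were a pseudocount of 0.1 or 1, a minimum of 1 FPKM or none, quantile normalization, median centring, rescaling, no trend, a replicate block and leaving out each library. The members and lists were chosen with earlier results of these data known.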

Additional observations from a re-analysis of the deposited data

How the results depend on the processing

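The count of called members was 0 for loci and 0 for isoform rows under every setting. The difference of the combined share was -3.22 points over rows of at least 0.5 FPKM and -5.70 to -1.22 without single libraries. lnc-EPN2-3 and TCONS_00021150 kept their direction in all settings, at -1.08 (quantile normalization) and -1.73 (rescaled to the FPKM outside the 9 loci) for lnc-EPN2-3. Signs of uncalled differences changed. With quantile normalization lnc-LRRTM4-6 was 0.20 and lnc-TAF15-5 0.30 as loci, and lnc-ARHGEF39-1:4 was 0.19, lnc-LRRTM4-6:1 0.30 and lnc-TAF15-5:1 0.06 as rows. Because that setting replaces each value by one set by its rank, it shows only changes of rank for these loci. The locus lnc-ARHGEF39-1, of rank 1 in all 4 libraries, was therefore fixed at 0.0. Rescaled to the listed total, lnc-ARHGEF39-1 was 0.29, lnc-TAF15-5 0.26 and lnc-ARHGEF39-1:4 0.13. Rescaled to the FPKM outside the 9 loci, lnc-ARHGEF39-1 was 0.12 and lnc-TAF15-5 0.10. With median centring SNHG10:5 was -0.02 and SNHG3:7 -0.04. The median difference of all genes moved from 0.09 to 0.46 and 0.35 with the 2 rescalings and to -0.03 with quantile normalization. The rescalings divide each library by its total, so lower subline totals raise all subline values. The listed totals were 460282 and 500086 FPKM (parent) against 351135 and 372689 FPKM (subline). Those outside the 9 loci were 124853 and 158054 FPKM against 113891 and 123779 FPKM. Quantile normalization gives all libraries the same set of values. Why the totals differ was not tested.

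Without single libraries the ranges for loci were -0.50 to 0.27 for lnc-ARHGEF39-1, -2.67 to -1.27 for lnc-EPN2-3, -3.48 to -0.83 for TCONS_00021150, -2.45 to 1.60 for lnc-LRRTM4-6, -0.46 to 0.79 for lnc-PHACTR4-3, -0.38 to 0.09 for lnc-TAF15-5, -0.96 to 0.12 for SNHG10, -0.34 to 0.54 for SNHG3 and -0.32 to 0.55 for TCONS_00001933. For rows they were -0.23 to 0.70 for lnc-ARHGEF39-1:3, -0.63 to 0.08 for lnc-ARHGEF39-1:4, -1.16 to 0.14 for SNHG10:10, -0.97 to 0.12 for SNHG10:11, -1.16 to 0.21 for SNHG10:16, -0.20 to 0.34 for SNHG10:5, -0.23 to 1.19 for SNHG10:7, -0.34 to 0.54 for SNHG3:6 and -0.05 to 0.14 for SNHG3:7. Such a fit assumes that the lone library of a line varies like the other line.

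With the replicate number as a block, 0 loci and 0 rows were called, and the unadjusted p of lnc-EPN2-3 was 0.000325 (limma adjusted p = 0.207), against 0.0488. Differences between replicates 1 and 2 correlated at 0.078 between the lines over 6444 genes, and the labels do not say that the numbers pair the libraries.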
